A study of Mus musculus with 82 samples.

Results

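The 8 complement genes described here are C3, C4b, C1s1, C1ra, Cfb, Cfd, Serping1 and Cd55. They were taken by name from the gene column of the count tables, which list 55401 genes. All 8 were found, and all 8 passed the filter on low counts at both time points. The cells were primary aortic vascular smooth muscle cells (aVSMC) from C57BL/6 mice, used within 7 passages and kept without serum and supplements for 24 h before stimulation. Growth medium, in use before that, had itself held EGF, insulin and hydrocortisone, and this history was shared by every group, controls included. At 24 h there were 7 groups of 6 cultures, with 1 culture per group from each of 6 mice: a control, 3 groups given EGF (10 µg/L), AngII (10 nM) or U46619 (1 µM) singly, the pairs EGF+AngII and EGF+U46619, and the triple combination EGF+AngII+U46619. At 48 h there were 6 groups in 2 sequencing batches. The first batch was given U46619, EGF, both or neither, in 5 sets of cultures (B1-1 to B1-5), and the other AngII, EGF, both or neither, in 5 other sets (B2-1, B2-2, B2-4, B2-5 and B2-6). Control and EGF therefore had 10 libraries each and the other groups 5. EGF is the ligand of the EGF receptor, AngII (angiotensin II) that of the AT1 receptor, and U46619 a stable thromboxane A2 analogue that activates the TP receptor.

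Complement is a cascade of plasma and cell-surface proteins that tags targets for removal. In the classical pathway C1q binds a target and activates the proteases C1r and C1s, which cleave C4 and C2 to form an enzyme that cleaves C3. In the alternative pathway factor D cleaves factor B to form a second C3-cleaving enzyme. C1 inhibitor, the product of Serping1, blocks C1r and C1s, and CD55 (decay-accelerating factor) dissociates both C3-cleaving enzymes on the cell surface. Most complement protein in plasma is made by the liver, but fibroblasts and other mesenchymal cells also transcribe several of the genes.

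On the mm10 (GRCm38) assembly the 8 protein-coding genes lay on 5 chromosomes. C3 was on chromosome 17 at 57203970 to 57228136, C4b at 34728380 to 34743882 and Cfb at 34856374 to 34862518 of the same chromosome. C1s1 (124530345 to 124542359) and C1ra (124512405 to 124523443) were neighbours on chromosome 6. Cfd was on chromosome 10 (79890853 to 79892655), Serping1 on chromosome 2 (84765387 to 84775444) and Cd55 on chromosome 1 (130439027 to 130462744). Of these genes 5 were in the RefSeq promoter table for GRCm38.p6 (C3, C1s1, C1ra, Cfd and Cd55). The 250 bases upstream of their RefSeq start sites were searched on both strands for the letters of a STAT (TTCNNNGAA), C/EBP (TTGCNNAA) and AP-1 (TGANTCA) motif and for the interferon response and NF-kB motifs. The C/EBP letters occurred once in C3 and once in C1s1 and the other motifs in none of the 5 genes. Both of these promoters are shown because they hold the C/EBP letters, which are in capitals. They run 5′ to 3′ on the gene's strand and end at the base before the start site.
C3 promoter (chr17:57228137-57228386, minus strand): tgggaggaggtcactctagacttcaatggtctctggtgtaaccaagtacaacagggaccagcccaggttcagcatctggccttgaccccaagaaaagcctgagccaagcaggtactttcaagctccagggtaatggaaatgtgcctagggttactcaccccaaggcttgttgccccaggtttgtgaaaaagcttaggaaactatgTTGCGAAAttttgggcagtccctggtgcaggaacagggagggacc
C1s1 promoter (chr6:124542360-124542609, minus strand): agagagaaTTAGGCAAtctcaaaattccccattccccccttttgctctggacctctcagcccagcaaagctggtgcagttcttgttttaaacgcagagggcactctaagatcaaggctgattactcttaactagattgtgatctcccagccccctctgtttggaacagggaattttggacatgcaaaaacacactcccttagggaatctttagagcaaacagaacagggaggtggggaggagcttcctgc
In C3 the match lay at -45 to -38 from the start site, and in C1s1 it lay at -242 to -235 on the opposite strand. The second RefSeq start site of C1s1 had no match. The same letters occurred in 9.57% of the 32536 promoters in the table, so each match is a description of these letters and not a bound site.

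Values are given as FPM, the usual depth-normalised fragment count with TMM library sizes set per time point, and per kilobase of exon where genes are compared. In the 24 h controls C1ra (mean of 219.8 FPM per kb), C1s1 (217 FPM per kb) and C3 (197 FPM per kb) were the most abundant of the 8 genes, followed by Serping1 (108 FPM per kb). C4b was at 10.5 FPM per kb, Cd55 at 5.87 and Cfb at 0.305 FPM per kb. Cfd had no fixed place in this order: its mean was 33.7 FPM per kb over the 6 controls, but 3.27 FPM per kb without mouse 6, below C4b (9.75) and Cd55 (4.63) in the same 5 controls. The library totals were 16483529 to 20818809 counts at 24 h and 19936925 to 33916114 at 48 h, so that values below 1 FPM rest on few fragments. Genes on chromosomes 9, X, Y and MT were listed at 0 in every library and were not analysed here, which takes Cfp and Vsig4 out of the complement genes and Tagln and Cnn1 out of the smooth muscle markers.

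For each of the 8 genes the mouse accounted for more of the variation than the treatment did. In the 24 h controls C3 ranged from 54.4 FPM in mouse 6 over a median of 813 FPM to 2851 FPM in mouse 3, a 52.4-fold range. Serping1 ranged from 20.1 FPM in mouse 1 over a median of 109 FPM to 964 FPM in mouse 5. Cd55 ranged from 0.240 FPM in mouse 1 over a median of 13.5 FPM to 83.8 FPM in mouse 3. The order of the mice was not the same from gene to gene: mouse 6 had the lowest C3, C1s1 and C1ra but the second highest C4b. Over the 42 libraries of 24 h the share of the mouse was 76.8% of the variation of log2(FPM + 0.5) for C3, 80.7% for C4b, 54.7% for C1s1, 49.5% for C1ra, 85.4% for Serping1 and 97.3% for Cd55. The treatment accounted for 14.9%, 14.2%, 36.9%, 40.1%, 10.8% and 0.605% of the same genes in this order. The median over all genes that passed the filter was 49.8% for the mouse and 15.1% for the treatment. Control and treated groups overlapped in range for all 8 genes at 24 h, so that the comparisons below rest on differences within a mouse.

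**Figure D1:**
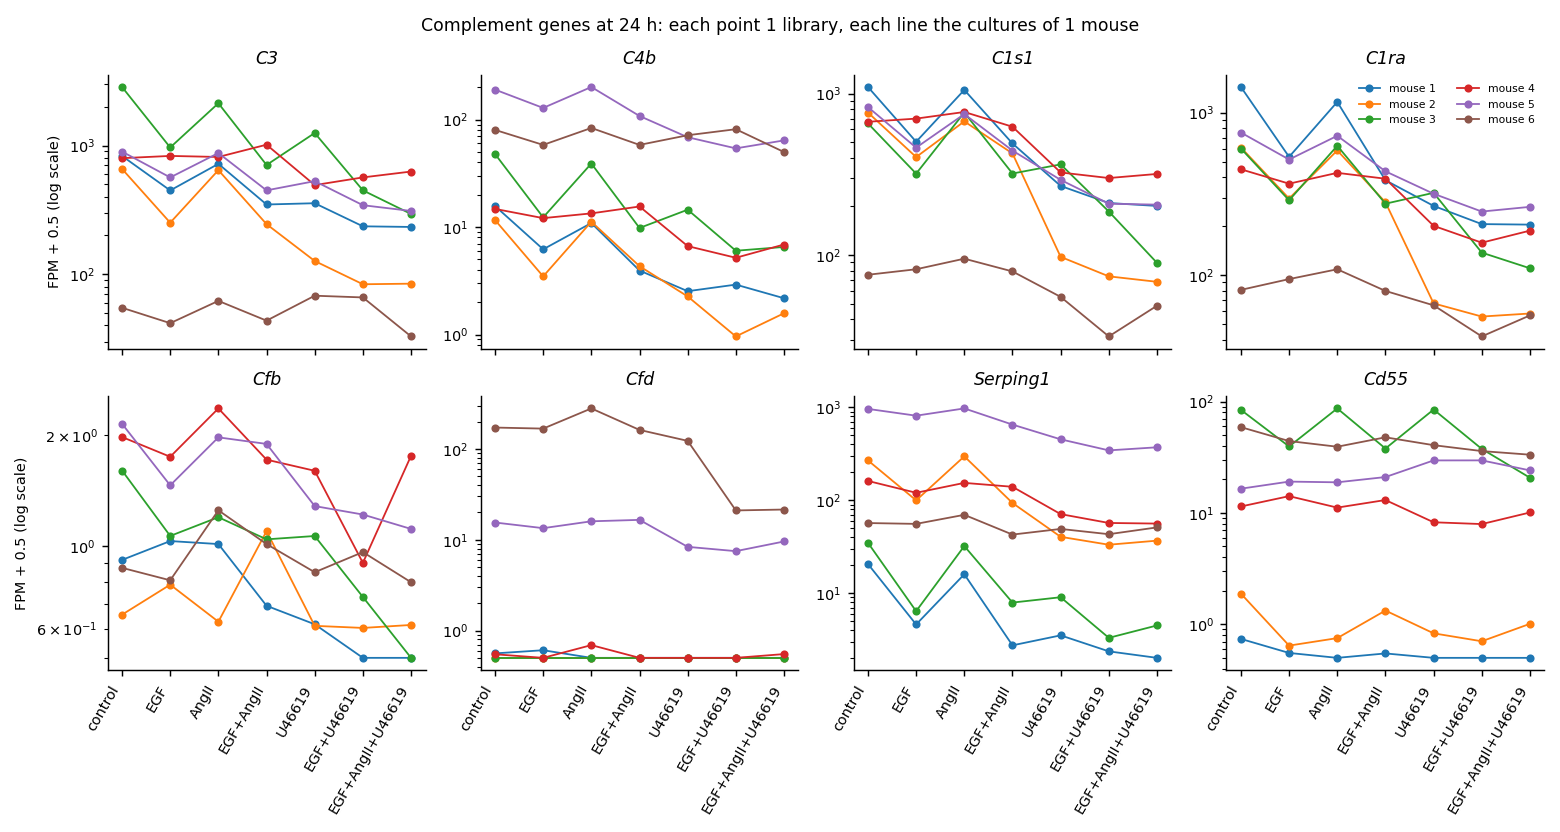
Level of each complement gene at 24 h, as FPM + 0.5 on a log axis, in the 7 groups named on the x axis; each point is 1 library and each line joins the cultures of 1 mouse. C3 of mouse 6 sits between 32.4 and 67.6 FPM in all groups, and Cfd is above 1 FPM in mice 5 and 6 only.

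The comparison of U46619 with control asks what activation of the TP receptor does to these genes. After 24 h with U46619, 5 of the 8 genes fell: both central components, C3 and C4b, both proteases of the C1 complex, C1s1 and C1ra, and the C1 inhibitor gene Serping1. A gene was called when its false discovery rate (FDR) by the Wald test of DESeq2 and by the quasi-likelihood F-test of edgeR, each with the mouse as a term, was under 0.05 and a compared group had a mean of at least 5 FPM. None of the 8 rose. In these bulk samples fewer cells of a type and less RNA per cell cannot be told apart. Over all 14528 genes tested, 13.9% were called lower and 26.8% in either direction, and the median log2-fold change was -0.06 against -1.26 for the 8 genes.

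C1s1 ranged from 75.0 over a median of 715 to 1097 FPM in control and from 54.6 over 279 to 364 FPM with U46619. Its level was lower with U46619 in 6 of 6 mice, to between 0.128-fold in mouse 2 and 0.729-fold in mouse 6 of the same mouse's control. The fitted log2-fold change was -1.47 ± 0.26 (SE, edgeR FDR = 9.16e-05), a 2.78-fold decrease. C1ra, its partner protease, ranged from 80.4 over 605 to 1439 FPM in control and from 64.5 over 233 to 320 FPM with U46619. C1ra was lower in 6 of 6 mice, with a log2-fold change of -1.55 ± 0.27 (edgeR FDR = 8.22e-05). The highest U46619 library of either gene lay below 5 of its 6 control libraries, the control of mouse 6 being the exception.

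Serping1 ranged from 3.02 over 44.3 to 453 FPM with U46619, against 20.1 over 109 to 964 FPM in control. It was lower in 6 of 6 mice, from 0.150-fold in mouse 2 to 0.864-fold in mouse 6, with a log2-fold change of -1.80 ± 0.33 (edgeR FDR = 0.000154). C4b ranged from 11.1 over 31.3 to 190 FPM in control and from 1.76 over 10.1 to 71.1 FPM with U46619. C4b was lower in 6 of 6 mice, with a log2-fold change of -1.72 ± 0.33 (edgeR FDR = 0.00024). C3 ranged from 67.6 over 424 to 1252 FPM with U46619, against 54.4 over 813 to 2851 FPM in control. C3 was lower in 5 of 6 mice, with a log2-fold change of -1.04 ± 0.30 (edgeR FDR = 0.00743), and in mouse 6 it was 1.24-fold higher. Mouse 6 thus showed the smallest decrease of all 5 genes. Without the mouse term 0 of the 8 genes were called with U46619 by edgeR and DESeq2 together, and the log2-fold change of C1ra was then -1.67 (edgeR FDR = 0.0534). The share of all genes called without that term is not given, so this count is not read as particular to the complement genes. With the mouse term, C3 was not called when mouse 2 was left out (log2-fold change -0.78, edgeR FDR = 0.0622), and the other 4 genes stayed called whichever mouse was left out.

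The remaining 3 genes were not called with U46619 at 24 h. Cfb, the alternative pathway protease factor B, was at most 1.64 FPM in any control and stayed below the mean of 5 FPM in every group, so that it could not be called. Its log2-fold change was -0.79 ± 0.45 (edgeR FDR = 0.17), and its level was lower in 6 of 6 mice. Cfd, the protease factor D, which is made mainly by fat cells, was between 0 and 0.191 FPM in every 24 h library of mice 1 to 4. In mouse 5 it was 15.0 FPM in control and 7.85 FPM with U46619, and in mouse 6 it was 171.5 FPM in control and 122 FPM with U46619. The Cfd values thus came almost wholly from 2 mice, and the log2-fold change was -0.70 ± 0.51 (edgeR FDR = 0.3). Cd55 had a log2-fold change of -0.37 ± 0.34 (edgeR FDR = 0.42), with 4 of 6 mice lower, which leaves a 95% interval of -1.03 to 0.30.

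Markers of cell types differed with U46619 as well. With U46619 at 24 h, 9 of 10 fibroblast markers fell, among them Scara5, a ferritin receptor (log2-fold change -3.29 ± 0.50, edgeR FDR = 2.20e-05), and Fbln1, an extracellular matrix protein (-1.68 ± 0.28, edgeR FDR = 5.19e-05). The summed level of the 10 fibroblast markers ranged from 751 over a median of 1038 to 3660 FPM in control and from 239.8 over 519 to 2293 FPM with U46619. Of 8 smooth muscle markers tested, 3 rose and none fell, with Acta2, the smooth muscle actin, at a log2-fold change of 2.05 ± 0.39 (edgeR FDR = 0.000202), and their summed level ranged from 1313 to 5473 FPM in control and from 4640 to 18472 FPM with U46619. Of 7 endothelial markers tested none was called, and their summed level reached 2425 FPM in the control of mouse 6. Of 5 macrophage and leukocyte markers tested, Csf1r rose and Lyz2 and Cd14 fell, while the leukocyte genes Ptprc, Adgre1 and Tyrobp were near 0. Of 20 interferon response genes, 13 fell and none rose, such as Ifit3 (-2.31 ± 0.54, edgeR FDR = 0.00153). Of 16 genes of the NF-kB and acute phase list, 2 rose, 2 fell and 12 were not called; the cytokine gene Il6 rose (1.82 ± 0.43, edgeR FDR = 0.00154) and Nfkbia, the NF-kB inhibitor, fell (-0.52 ± 0.15, edgeR FDR = 0.00657). The part of the cell type markers in the complement values was not tested.

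EGF+U46619 asks whether both agents together differ from either alone. The same 5 genes fell against control, where 15.8% of all genes tested were called lower and 32.1% in either direction. C1ra was lower in 6 of 6 mice, ranging from 41.3 over 147 to 245 FPM, with a log2-fold change of -2.14 ± 0.27 (edgeR FDR = 1.01e-06), a 4.42-fold decrease. C1s1 ranged from 30.9 over 197 to 299 FPM, with a log2-fold change of -2.04 ± 0.26 (edgeR FDR = 1.18e-06). Serping1 ranged from 1.87 over 37.7 to 345 FPM (-2.31 ± 0.34, edgeR FDR = 6.05e-06). Both C1 protease genes and Serping1 were lower in every mouse, mouse 6 included. C4b (-2.11 ± 0.34, edgeR FDR = 1.93e-05) and C3 (-1.53 ± 0.31, edgeR FDR = 0.00021) were lower in 5 of 6 mice, the exception being mouse 6. Cfb had a log2-fold change of -1.39 ± 0.47 and an FDR under 0.05 in both tests (edgeR 0.017, DESeq2 0.00775), but stayed below the FPM minimum. Cfd in mouse 6 was 20.5 FPM with EGF+U46619, against 171.5 FPM in control. Its log2-fold change was -1.97 ± 0.54 with an FDR of 0.00625 in edgeR and 0.16 in DESeq2, and it was not called. Cd55 had a log2-fold change of -0.75 ± 0.34 (edgeR FDR = 0.0801) and was called when mouse 5 was left out (-1.20, edgeR FDR = 0.0157).

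Against EGF alone, EGF+U46619 was lower for C1s1 (-1.36 ± 0.26, edgeR FDR = 0.000684), C1ra (-1.36 ± 0.27, edgeR FDR = 0.000876) and Serping1 (-1.04 ± 0.33, edgeR FDR = 0.0255), each in 6 of 6 mice, where 6.14% of all genes tested were called lower and 12.9% in either direction. C3 and C4b were not called there (edgeR FDR = 0.165 and 0.0587). Without mouse 6 all 5 genes were called in that comparison, beside 7.26% of all genes tested called lower and 14.2% in either direction, and the call of Serping1 was lost when mouse 1, 2, 4 or 5 was left out. Against U46619 alone, 0 of the 8 genes and 0% of all genes were called by edgeR and DESeq2, with 3 genes at an unadjusted p under 0.05 in edgeR and 2 in DESeq2. C1s1 and C1ra were lower with EGF+U46619 than with U46619 in 6 of 6 mice, at log2 differences of -0.56 (95% interval -1.06 to -0.07) and -0.59 (-1.11 to -0.07). The interaction of EGF and U46619 was not called for any of the 8 genes, beside 0% of all genes tested. None of the 8 had an unadjusted p under 0.05 for it in edgeR or DESeq2. The interaction estimate for C4b was 0.82 ± 0.46 and for C1s1 0.12 ± 0.36 on the log2 scale.

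With EGF+AngII+U46619 the same 5 genes fell in 6 of 6 mice, where 15.7% of all genes tested were called lower and 33.4% in either direction. Their log2-fold changes ran from -1.83 ± 0.31 for C3 (edgeR FDR = 2.24e-05) to -2.17 ± 0.34 for Serping1 (edgeR FDR = 8.72e-06). Cd55 was near the threshold at -0.84 ± 0.35 (edgeR FDR = 0.0509, DESeq2 FDR = 0.0454). It was called when mouse 4 (-1.03) or mouse 5 (-1.20) was left out. Against EGF+U46619, 0 of the 8 genes and 0% of all genes tested were called by edgeR and DESeq2. None of the 8 had an unadjusted p under 0.05 in either, the 95% interval for C1s1 being -0.52 to 0.47.

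EGF and AngII alone gave no call. With EGF, 0 of the 8 genes were called, beside 0.0275% of all genes tested and 0.0138% called lower, while 5 had an unadjusted p under 0.05 in edgeR and 6 in DESeq2, and DESeq2 alone gave C4b and Serping1 an FDR under 0.05. Serping1 was lower with EGF than in control in 6 of 6 mice, at a log2-fold change of -1.27 ± 0.33 (edgeR FDR = 0.0817). C4b was also lower in 6 of 6 mice, at -1.20 ± 0.33 (edgeR FDR = 0.088). Without mouse 6, C4b and Serping1 were called, and the share of all genes tested that were called was then 2.34%, with 0.846% called lower. With AngII, 0 of the 8 genes and 0% of all genes were called by edgeR and DESeq2, and 0 of the 8 had an unadjusted p under 0.05 in either. The 95% intervals of the log2-fold change with AngII were -0.70 to 0.45 for C3, -0.47 to 0.52 for C1s1 and -0.69 to 0.55 for Serping1.

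With EGF+AngII, 4 genes fell, beside 1.59% of all genes tested called lower and 3.13% in either direction: C3 (-1.04 ± 0.30, edgeR FDR = 0.048), C4b (-1.27 ± 0.33, edgeR FDR = 0.0413), C1ra (-0.94 ± 0.27, edgeR FDR = 0.048) and Serping1 (-1.41 ± 0.33, edgeR FDR = 0.0367). C1s1 was lower in 5 of 6 mice at -0.72 ± 0.25 (edgeR FDR = 0.0844). Against EGF alone, 0 of the 8 genes and 0% of all genes tested were called by edgeR and DESeq2, and 0 of the 8 had an unadjusted p under 0.05. None of these 4 genes was called when mouse 1, 2, 3 or 5 was left out, nor when control and EGF+AngII were fitted alone. The share of all genes called in those fits is not given, so the lost calls are not read as particular to these genes. All comparisons with control share the same 6 control libraries.

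At 48 h the control library of set B2-4 stood apart from the other libraries of its set. Its profile was nearest to the EGF library of set B2-2 (r = 0.9965) and its best match in its own set was 0.9319, while 37 of the 40 libraries were nearest to a library of their own set. The other exceptions were the EGF and EGF+AngII libraries of set B2-2, which were nearest to the control library of B2-4 (r = 0.9965 and 0.9955). Serping1 was 16.5 FPM in it, against 4034, 3784 and 4368 FPM in the EGF, AngII and EGF+AngII libraries of set B2-4. C3 was 34.6 FPM in it against 1175, 1113 and 1420 FPM in the same libraries. The control library of set B2-2 was also less like its set: the median correlation of its deviations with the rest of the set was 0.537, against 0.888 to 0.892 for the other 3 libraries. Serping1 was 96.2 FPM in it and 14.5 to 17.8 FPM in those 3 libraries, and the summed macrophage and leukocyte markers were 259.9 FPM in it and 45.7 to 46.4 FPM in those. The main 48 h results are therefore given with the control library of B2-4, without it, and without both control libraries. The labels also give several culture sets the same mouse number, although the methods speak of a different mouse for each replicate, so that fits with the mouse number and with the culture set as a term are both given. The median correlation of deviations was 0.809 between libraries of 1 culture set. Between libraries of 1 mouse number in different sets of a batch it was -0.056.

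The fits with the mouse number held no batch term, while all U46619 libraries were in the first batch and the controls in both. Mean control levels differed between the batches: C1ra was 337 FPM in the first and 147 FPM in the other, and C4b 86.7 and 102 FPM. With the mouse number as a term, 0 of the 8 genes were called with U46619 at 48 h, beside 4.03% of all genes tested and 1.55% called lower. Of the 8, 2 had an unadjusted p under 0.05 in edgeR and 3 in DESeq2. C4b was at -1.33 ± 0.41 (edgeR FDR = 0.0532), and without the control library of B2-4 it was called (-1.39 ± 0.42, edgeR FDR = 0.05), beside 3.79% of all genes and 1.69% called lower. With EGF+U46619, C4b fell (-1.78 ± 0.42, edgeR FDR = 0.00721), beside 3.01% of all genes tested called lower and 6.85% in either direction, and without that library C3, C4b and C1ra were called, beside 2.98% called lower and 6.35% in either direction. Against EGF alone, EGF+U46619 was lower for C4b (-1.78 ± 0.42, edgeR FDR = 0.0108), beside 2.2% of all genes tested called lower and 4.81% in either direction. Without the control library of B2-4 that value was -1.77 ± 0.42 (edgeR FDR = 0.0102), beside 2.47% called lower and 5.32% in either direction.

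Within the 5 sets treated with U46619, C3, C4b, C1s1, C1ra, Cfb and Serping1 were each lower with U46619 than in the control of the same set in 5 of 5 sets, and likewise with EGF+U46619. C1ra was 278, 368, 433, 156.9 and 449 FPM in the controls of sets B1-1 to B1-5 and 65.4, 89.3, 182.1, 85.4 and 303 FPM with U46619. C1s1 was 344, 465, 586, 249.9 and 787 FPM in the same controls and 96.7, 106, 249.9, 143 and 613 FPM with U46619. Serping1 was 11.6, 182.9, 235, 47.1 and 444 FPM in control and 5.16, 41.8, 154.6, 17.2 and 305 FPM with U46619. All 5 sets moved the same way, and set B1-5 had the highest level of all 3 genes in either group. Cd55 was lower with U46619 in 1 of 5 sets.

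Cd55 at 48 h differed mostly between culture sets, at 154.6 FPM in the control of set B1-5 and 155.9 FPM with U46619 in the same set, against 7.86 and 8.80 FPM in set B1-4. Cfb was highest in set B2-4, at 5.77, 5.56 and 6.31 FPM with EGF, AngII and EGF+AngII, while the control library of that set was at 0.0332 FPM. Cfd was above 5 FPM in the 4 libraries of set B2-5 only, from 7.95 to 10.2 FPM, and none of these had received U46619.

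When the term was the culture set and not the mouse number, C4b and C1ra were called with U46619 (10.6% of all genes called, 4.87% lower) and C3, C4b, C1s1 and C1ra with EGF+U46619 (14.9% called, 7.32% lower). When the control library of B2-4 was also left out, C3, C4b, C1s1, C1ra and Serping1 were called with U46619 (7.79% of all genes called lower) and with EGF+U46619 (10.3%). The log2-fold changes with U46619 in that fit were -1.19 ± 0.27 for C3 (edgeR FDR = 0.00174), -1.07 ± 0.21 for C4b (edgeR FDR = 0.000536), -1.32 ± 0.22 for C1s1 (edgeR FDR = 7.33e-05), -1.33 ± 0.19 for C1ra (edgeR FDR = 6.99e-06) and -1.25 ± 0.30 for Serping1 (edgeR FDR = 0.00328). With EGF+U46619 they were between -1.55 ± 0.22 for C1s1 and -1.66 ± 0.19 for C1ra. Cd55 was at 0.04 ± 0.15 with U46619. Without both control libraries, B2-2 and B2-4, the same 5 genes were called with U46619 (8.16% of all genes called lower, 16.4% in either direction) and with EGF+U46619 (10.4% and 20.4%). Serping1 was then at -1.08 ± 0.20 (edgeR FDR = 0.000202) with U46619. The batch with U46619 fitted alone, which holds neither library, also called these 5 genes, beside 10.1% of all genes called lower and 21.9% in either direction with U46619 and 12.4% and 26.6% with EGF+U46619.

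Cell type markers differed with U46619 at 48 h too, in the fit with the culture set and without the control library of B2-4. With U46619, 9 of 10 fibroblast markers fell (median log2-fold change -1.03), as did 10 of 20 interferon response genes, and none of either list rose. Of 8 smooth muscle markers none rose and 2 fell, of 7 endothelial markers 1 fell, and of 5 macrophage and leukocyte markers 1 rose and 1 fell. With EGF+U46619, 8 of 10 fibroblast markers, 12 of 20 interferon response genes and 6 of 8 smooth muscle markers fell. The summed level of the fibroblast markers was 912, 2278, 1797, 1115 and 3999 FPM in the controls of sets B1-1 to B1-5. With U46619 it was 648, 1199, 1256, 735 and 2810 FPM in the same sets, lower in each. The part of these markers in the complement values at 48 h was not tested.

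EGF, AngII and EGF+AngII gave no call among the 8 genes at 48 h by edgeR and DESeq2 in any of these fits. Over all genes tested, 0% were called with each of them in the fits of both batches together. In the batch with U46619 alone, 0.0564% of all genes were called with EGF. With the mouse number as the term and all libraries, 0 of the 8 genes had an unadjusted p under 0.05 in edgeR or DESeq2. With the culture set as the term and without the control library of B2-4, Serping1 and C1s1 had one with EGF in both tools, and Serping1 and C1ra with AngII in both, with C1s1 added in DESeq2. With EGF+AngII this held for Serping1 in both tools and for Cfd in DESeq2. Without both control libraries it held for C4b with EGF and with AngII in both tools, and for Cfd with EGF+AngII in DESeq2. In the batch with U46619 alone it held for C4b with EGF in both tools. Leaving out set B2-4, C1s1 and C1ra were lower with EGF than in the control of the same set in 8 of 9 sets.

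**Figure D2:**
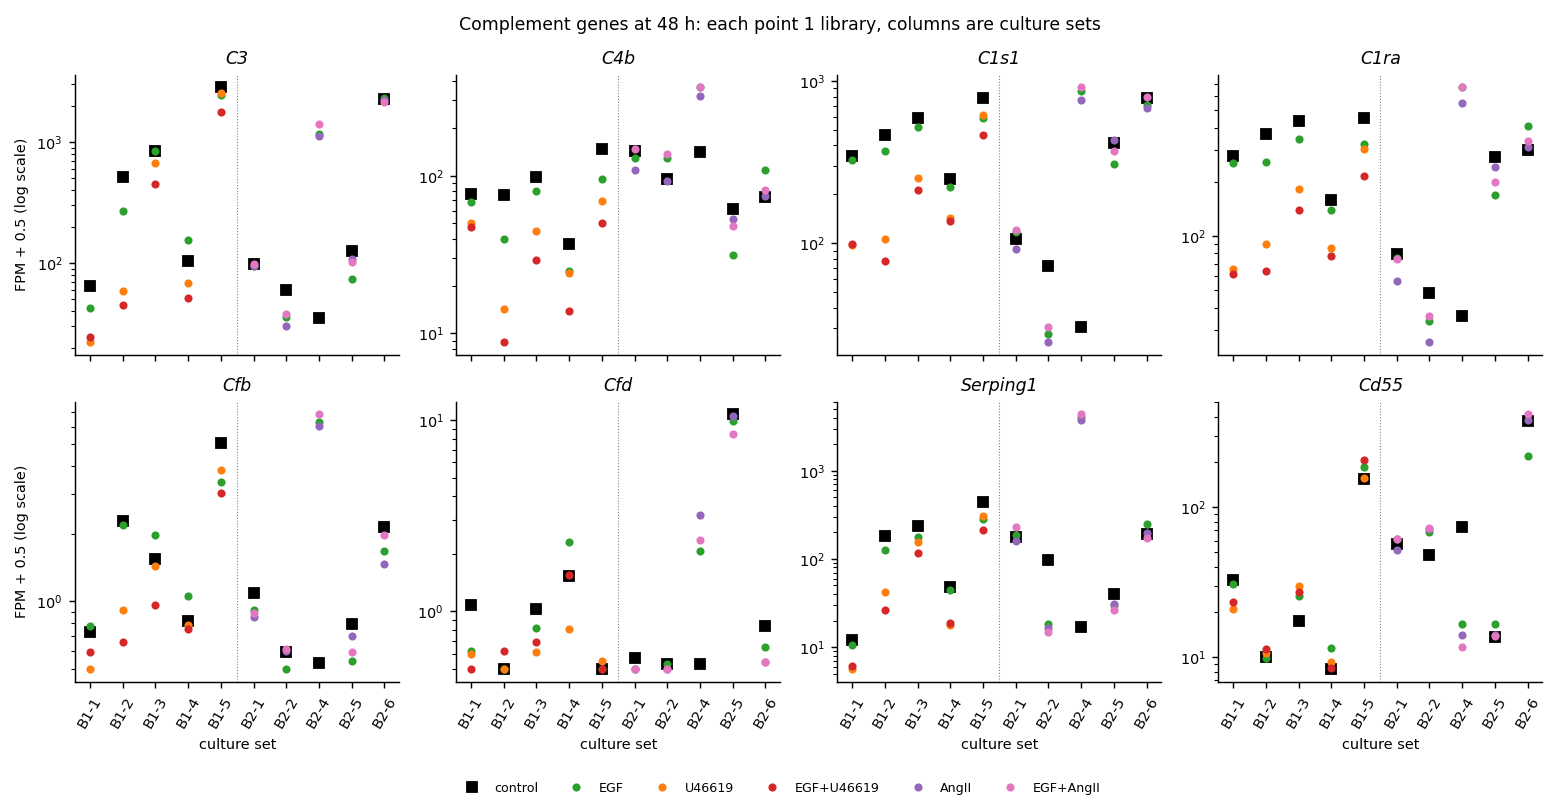
Level of each complement gene at 48 h, as FPM + 0.5 on a log axis, by culture set (x axis, with the batch given U46619 to the left of the dotted line and the batch given AngII to the right); each marker is 1 library, black squares for control and coloured circles for the treatments. Serping1 in set B2-4 is 16.5 FPM in the control library and at least 3784 FPM in the other 3 libraries of the set.

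**Figure D3:**
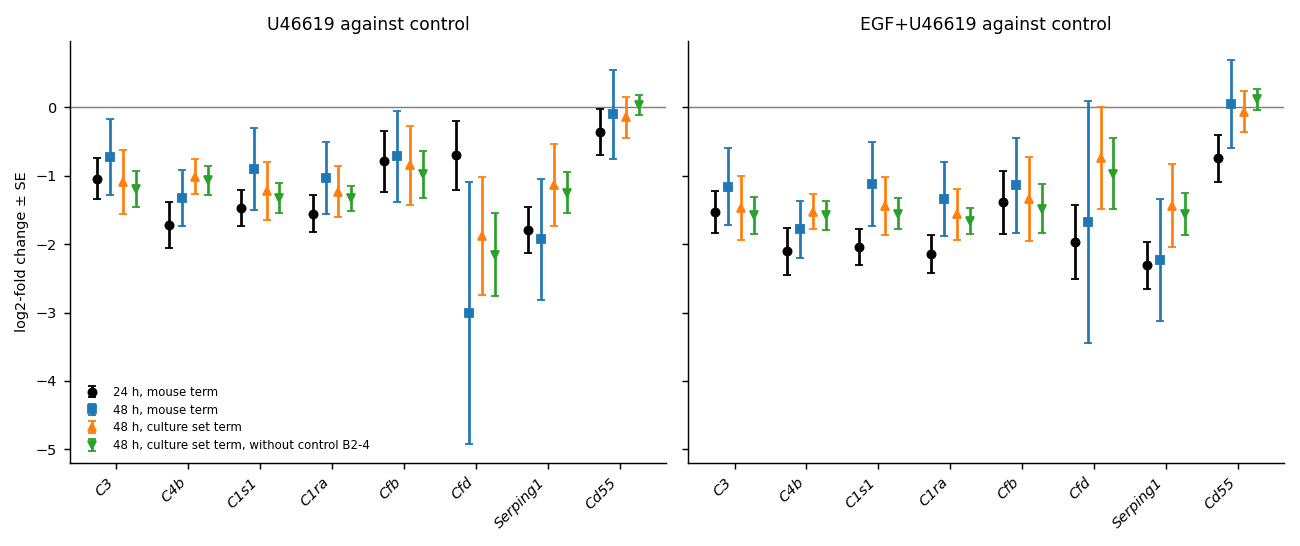
Log2-fold change ± SE (y axis) of each complement gene with U46619 (left) and with EGF+U46619 (right) against control, at 24 h with the mouse term and at 48 h with the mouse number, with the culture set, and with the culture set but without the control library of B2-4. C1ra is below 0 in each, from -1.03 with the mouse number at 48 h to -2.14 with EGF+U46619 at 24 h.

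Of 48 other complement genes on the list, 24 were tested, and with U46619 at 24 h 2 of them rose and 6 fell (median log2-fold change -0.72). Over all genes tested, 13.9% were called lower and 26.8% in either direction. C2, the partner of C4 in the classical C3-cleaving enzyme, fell (-1.52, edgeR FDR = 0.000655). C8g, a subunit of the terminal component C8, fell (-2.02, edgeR FDR = 3.16e-05), as did the lectin pathway gene Colec11 (-2.47, edgeR FDR = 0.000539). C8g and Colec11 were close to the minimum of 5 FPM. Their highest group means were 5.03 and 5.72 FPM in the comparison of EGF+AngII+U46619 with control. C4bp, which encodes an inhibitor of the classical C3-cleaving enzyme, rose (2.65 ± 0.66, edgeR FDR = 0.00261), and so did Cd59a, a membrane inhibitor of the terminal complex (1.16, edgeR FDR = 0.0275). With EGF+U46619 at 24 h, 3 of the 24 rose and 8 fell, beside 15.8% of all genes tested called lower and 32.1% in either direction. C3ar1, the receptor of the C3 fragment C3a, rose (2.95 ± 0.56, edgeR FDR = 0.000114), with a highest group mean of 5.08 FPM. At 48 h, with the mouse number as the term, Masp1, a protease of the lectin pathway, rose with EGF+U46619 (1.21 ± 0.30, edgeR FDR = 0.0114). C1rb, called lower with U46619, shares 26.3% of the 150-base stretches of C1ra, so that reads could be counted for both. The shared portion was 7.48% for C4b and C4a, 2.46% for C1s1 and C1s2 and 2.11% for Cd55 and Cd55b.

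**Figure D4:**
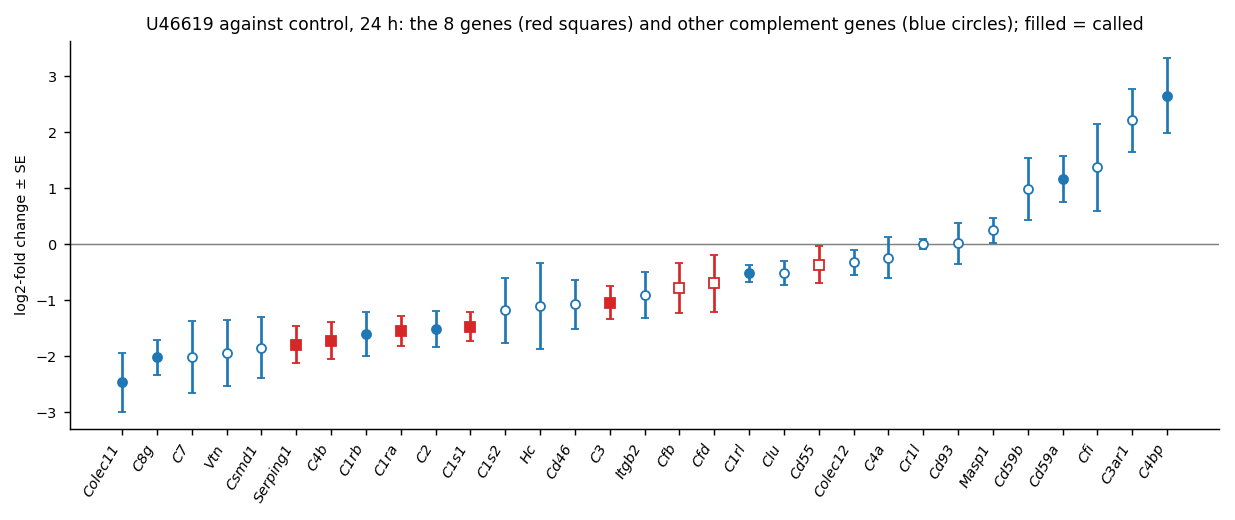
Log2-fold change ± SE with U46619 against control at 24 h (y axis) for the 8 genes (red squares) and other complement genes tested (blue circles), in the order of their change; filled markers are called genes. The genes run from Colec11 at -2.47 to C4bp at 2.65, with the 5 called genes of the 8 between -1.80 and -1.04.

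Across the 42 libraries of 24 h, with each mouse centred on its own mean, the genes most like each of the 8 were found among 10162 genes. C1s1 and C1ra were most like each other (Pearson r = 0.984). C4b was most like Serping1 (r = 0.956) and C3 was most like C4b (r = 0.942). Serping1 was most like Pltp (r = 0.970), a phospholipid transfer protein, and Cfd was most like Cidec (r = 0.963), a lipid droplet protein. The closest gene to Cd55 was Gpam (r = 0.710), and that to Cfb was P3h3 (r = 0.801). The libraries of a treatment share that treatment, so that these values describe likeness and carry no test.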

How the data were processed

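Poly(A) RNA of cultured aVSMC was sequenced in paired 150-base reads. Per the labels and methods, the authors aligned reads to mm10 with HISAT2 2.1.0 and counted exon fragments per gene with featureCounts against Ensembl v101, including multi-mapping reads. The deposited values are raw counts of 82 libraries. From these, edgeR 4.0.16 (TMM, filterByExpr, quasi-likelihood) and DESeq2 1.42.0 (Wald test, genes with a count) were run in R 4.3.3 on all groups of a time point with group and mouse as terms, and p-values were adjusted over all genes. A call needed FDR under 0.05 in both, a mean of at least 5 FPM in a compared group and the filter passed at both time points. The SE is that implied by edgeR's F. Libraries of 1 mouse at 24 h deviated together in 126 of 126 pairs (r above 0.1), as did those of 1 culture set at 48 h in 57 of 60 and those of 1 mouse number in different sets of a batch in 15 of 48. The numbers come from the labels. The p-values measure the spread between these cultures. All 8 members are named, with the gene most like each, their sequence copies, up to 12 other called complement genes by smallest FDR and up to 3 called genes of each marker list by largest change with U46619. Members and lists were chosen with earlier results of these data known. The scripts were tested on simulated data, where many true differences were missed. For U46619 against control at 24 h, 80 of 200 planted differences were found. Recovery there was 42 of 67 for the 4-fold size, 28 of 67 for 2-fold and 10 of 66 for 1.5-fold. The same test at 48 h found 92 of 200. A gene without a call is therefore not shown to be unaffected. A gene counted in the list of other complement genes is not reported here by name or in the plot.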

Additional observations from a re-analysis of the deposited data

Results flagged for a closer look

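In groups of 4 to 10 samples, 38 of 104 combinations of gene and group had 1 library set apart from the rest by Dixon's gap criterion. Its rate of 5% holds for independent groups of normally distributed values. FPM spanned wide ranges and the same mice or sets recur from group to group, so that 38 of 104 cannot be set against that 5%. At 24 h, C3 was 2851 FPM in the control of mouse 3, with the next library at 897 FPM. Cfd of mouse 6 stood apart in 6 groups, at 171.5 FPM in control, 166.9 with EGF, 278.8 with AngII, 122.2 with U46619, 161.5 with EGF+AngII and 20.52 with EGF+U46619. Serping1 of mouse 5 stood apart in all 7 groups, at 964.1 FPM in control, 814.9 with EGF, 975.7 with AngII, 453.3 with U46619, 653.3 with EGF+AngII, 344.5 with EGF+U46619 and 371.9 with EGF+AngII+U46619.

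At 48 h, set B1-5 stood apart in control for Cfb (4.578 FPM) and Serping1 (444.4), with U46619 for C3 (2561), Cfb (3.349) and Cd55 (155.9), and with EGF+U46619 for C3 (1787), Cfb (2.552) and Cd55 (205.1). Set B2-4 stood apart with EGF for C4b (362.3 FPM), Cfb (5.774) and Serping1 (4034), with AngII for C4b (317.8), Cfb (5.556) and Serping1 (3784), and with EGF+AngII for Cfb (6.314) and Serping1 (4368). Cfd of set B2-5 was 10.22 FPM in control, 9.38 with EGF, 10.0 with AngII and 7.954 with EGF+AngII. Cfd of set B1-4 was 1.048 FPM with EGF+U46619. Cd55 of set B2-6 was 377.4 FPM in control, 382.2 with AngII and 416.1 with EGF+AngII.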

How the results depend on the processing

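Counts of called complement genes depended on the term for the culture's origin. Without the replicate block, the count at 24 h was 0 in place of 5 with U46619, 0 in place of 4 with EGF+AngII, 2 in place of 5 with EGF+U46619 and with EGF+AngII+U46619, and 0 in place of 3 for EGF+U46619 against EGF. At 48 h it was 0 in place of 1 for EGF+U46619 against control and against EGF. With the culture set as the block at 48 h the counts were 2 with U46619, 4 with EGF+U46619 and 3 for EGF+U46619 against EGF, and each was 5 in the batch with U46619 alone and with the culture set as the block but without the control library of B2-4, or without those of B2-2 and B2-4. Leaving out the control library of B2-4 in the fit with the mouse number, chosen like the previous 2 settings after seeing the data, gave 1 with U46619 and 3 with EGF+U46619. DESeq2 alone gave 2 with EGF at 24 h, and 1, 3 and 2 at 48 h with U46619, with EGF+U46619 and for EGF+U46619 against EGF. No filter on low counts gave 2 with EGF at 24 h. Fitting only the groups compared gave 0 with EGF+AngII at 24 h and 0 for EGF+U46619 against EGF at 48 h. The cause was not tested. Calls over all genes moved as well: for EGF+U46619 against EGF at 48 h they were 4.81% in the main fit and 13.1% with the culture set as the block. They were 14.2% in the batch with U46619 alone and 16.8% with the culture set but without the control library of B2-4. Where no such share is given beside a count, the count is not read as particular to the complement genes. Leaving out 1 replicate at a time, the count ran from 0 to 2 with EGF, 4 to 5 with U46619, 0 to 4 with EGF+AngII, 5 to 6 with EGF+U46619 and with EGF+AngII+U46619 (the sixth being Cd55), and 2 to 5 for EGF+U46619 against EGF at 24 h. At 48 h, it ran from 0 to 1 with U46619 (1 without B2-5) and from 1 to 2 with EGF+U46619 (2 without B2-2 or B2-4). Of 2716 values of single genes under alternatives, 2591 kept their side of the threshold, 198 of these with the opposite sign but called in neither fit, 78 became called and 47 lost the call. Most of the 2716 values belong to comparisons in which the gene was not called in the main fit and so could not lose a call. The 47 are therefore not to be set against all 2716. No called value changed sign.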

Other observations

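Cfd varied beside the markers of fat cells, a list added after the Cfd values were seen. The summed level of 8 adipocyte markers was 246 to 3037 FPM in the 7 libraries of mouse 6 at 24 h, the mouse with the highest Cfd, and 25.3 to 174.2 FPM in the 35 libraries of the other 5 mice. At 48 h the sum was 259 to 328 FPM in set B2-5, where Cfd was 7.95 to 10.2 FPM, and 282 to 439 FPM in set B1-1, where Cfd was 0 to 0.583 FPM. At 24 h Cidec, 1 of the 8 markers, was at most 0.719 FPM in mice 1 to 4. It was 6.73 to 19.1 FPM in mouse 5 and 8.35 to 244 FPM in mouse 6, the mice with Cfd. Plin4, another of the markers, was higher in mouse 1 (22.1 to 134.6 FPM) than in mouse 5 (6.83 to 16.7 FPM). In mouse 6 the sum was 2501 FPM in control and 246 FPM with EGF+U46619, beside Cfd at 171.5 and 20.5 FPM. The part of fat cells in the Cfd values was not tested.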
